A study of Mus musculus with 16 samples.

Results

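The 9 scavenger receptor genes Msr1, Marco, Colec12, Cd36, Scarb1, Scarb2, Stab1, Cd163 and Olr1 were followed in engrafted brain macrophages and host microglia of bone marrow chimeras. They were taken by symbol from a table of read counts for 24411 genes, and each had 1 row there. All recipients were wild-type C57BL/6J mice that had been irradiated with 950 cGy at 6 weeks of age and transplanted with wild-type bone marrow carrying CD45.1. From each of 8 brains, Ly6C/G-negative CD11b+ cells were sorted into engrafted cells (low CD45.1) and host microglia (low CD45.2). Mice 1 to 4 had received LPS, a bacterial endotoxin, at 2.5 mg/kg 12 h earlier, and mice 5 to 8 were controls without LPS, which gave 16 libraries in 4 groups of 4. The chimeras of the transcriptome experiment were sacrificed 9 months after transplantation, whereas the labels give either 3.5 or 9 months for every library alike, and they do not assign libraries to the 2 experiments of the design, so values within an experiment could not be given. Host microglia had been irradiated and engrafted cells had not, so that origin and irradiation cannot be told apart.

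Scavenger receptors are membrane proteins of macrophages that bind modified lipoproteins, lipids, apoptotic cells and microbial surfaces and carry them into the cell. Class A receptors (Msr1, Marco, Colec12) have collagen-like stalks, class B receptors (Cd36, Scarb1, Scarb2) cross the membrane at both ends, and the remaining members belong to other classes. In the brain, microglia and the macrophages at its borders use such receptors to clear debris, amyloid and lipids, and Cd163 is well known as a marker of border-associated macrophages.

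The libraries held between 395283 and 1203597 reads on genes (median 820587.5). Levels are given as CPM, read counts relative to library size scaled by TMM over the 16 libraries, and 0 reads in a library leave room for 3 reads, which is 2.39 to 8.41 CPM. Such limits and all counting intervals cover counting error only. Of the 10 defining genes of microglia, among them Tmem119, P2ry12 and Csf1r, none was at 0 in any group. They summed to 25148 to 28301 CPM in unchallenged host microglia and to 12004 to 12948 CPM in host microglia after LPS. In engrafted cells the sums were lower, 15657 to 17813 CPM without LPS and 5597 to 7130 CPM after it. Some of the 10 genes did not pass the test between populations that is described below (adjusted p above 0.05). These were Fcrls, Cx3cr1 and Csf1r without LPS, and Fcrls, Csf1r and Tmem119 after it. The 10 genes of perivascular macrophages summed to 33.7 to 46.6 CPM in host microglia, with Lyve1 at 0 reads in all 8 host libraries, and to 1013 to 1620 CPM in engrafted cells. Lyve1 was near the limit of detection in engrafted cells too, with 8 reads without LPS and 1 read after it. The 8 monocyte genes summed to 11.5 to 40.8 CPM in host microglia, to 207 to 360 CPM in unchallenged engrafted cells, and to 1323 to 3136 CPM in engrafted cells after LPS. In such bulk libraries, fewer cells of a type and less RNA per cell cannot be told apart, and the part of other cells in the differences between populations was not tested.

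The 9 genes fell into different patterns. Msr1 rose with LPS in both populations, Marco only had more than 5 reads in libraries of host microglia after LPS, Cd36 was highest in unchallenged engrafted cells, and Cd163 was highest in engrafted cells after LPS. Stab1 was higher in engrafted cells under both conditions, Scarb1 and Scarb2 differed by about 2-fold or less, and Colec12 and Olr1 were near the limit of detection. The values of every library are plotted by gene.

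**Figure D1:**
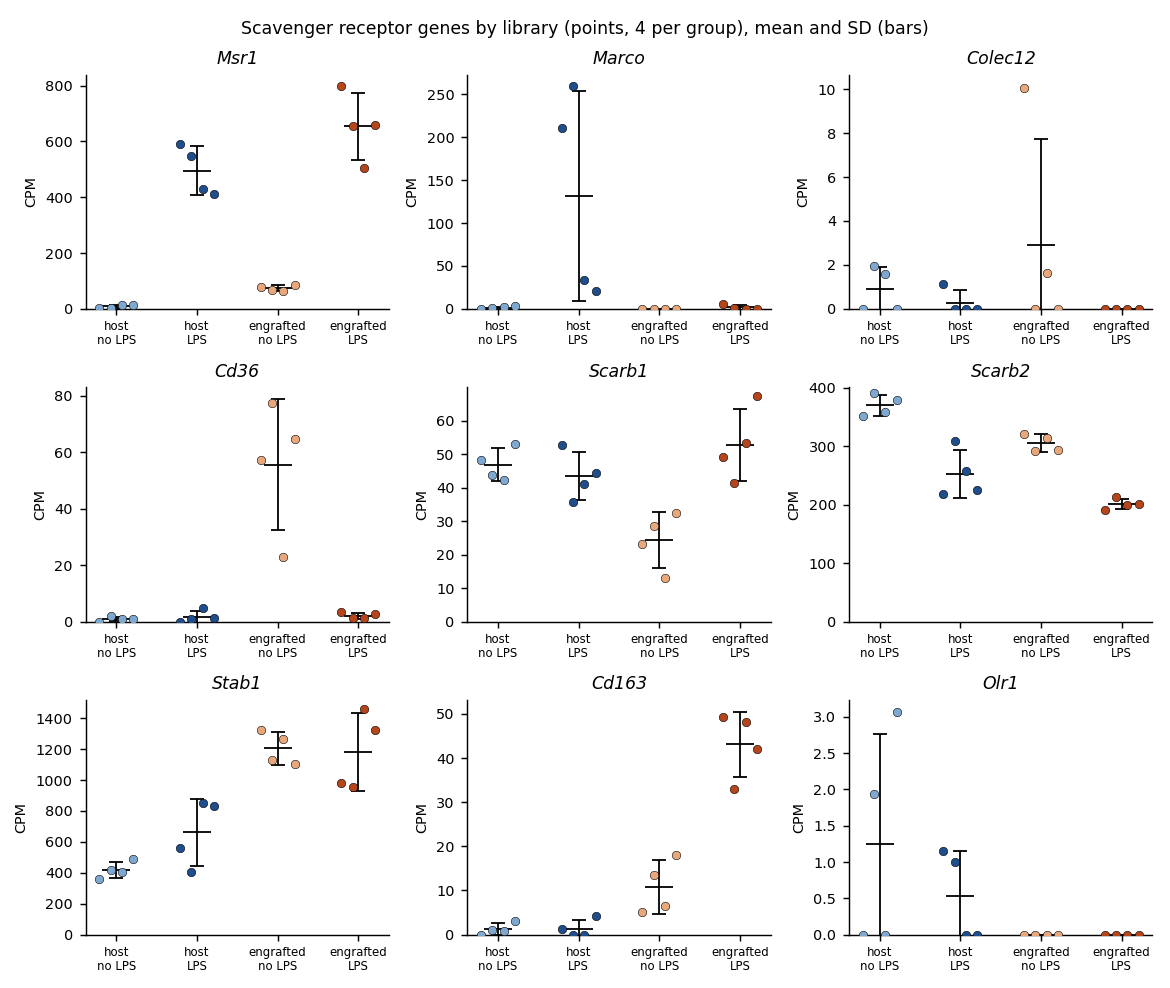
CPM of the 9 genes (y axis, linear, separate scale for each gene, SD bars cut at 0) in the 4 groups (x axis), with a point for each library in the order of the mice and bars for mean and SD. Marco stands at 20.9 to 260 CPM in host microglia after LPS and at 5.59 CPM or less in the other 12 libraries, whereas Cd36 stands at 22.9 to 77.5 CPM in unchallenged engrafted cells and at 4.83 CPM or less elsewhere.

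The 250 bases before the transcription start are shown for Marco, Cd36 and Cd163, since each of these genes had its highest level in a different group. The sequences are from RefSeq on GRCm38.p6, 5′ to 3′ toward the gene, at chr1:120505025-120505274 on the minus strand for Marco, chr5:17835897-17836146 on the minus strand for Cd36 and chr6:124304401-124304650 on the plus strand for Cd163. Of the 9 genes 6 had an entry, Msr1 and Scarb1 had none, and Colec12 was not looked up. Capitals mark matches, on either strand, to the letters TGANTCA (AP-1), GAGGAA (PU.1) or TTGCNNAA (C/EBP), which do not overlap here. Reads were mapped to NCBI37, where the 250 bases before the counted transcripts of Cd36 and Cd163 have the same letters, while those before the counted transcript of Marco do not.
Marco: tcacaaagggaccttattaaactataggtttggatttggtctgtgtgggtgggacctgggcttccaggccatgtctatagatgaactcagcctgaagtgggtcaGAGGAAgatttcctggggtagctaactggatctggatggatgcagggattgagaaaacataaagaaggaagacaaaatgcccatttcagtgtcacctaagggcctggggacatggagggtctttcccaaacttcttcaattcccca
Cd36: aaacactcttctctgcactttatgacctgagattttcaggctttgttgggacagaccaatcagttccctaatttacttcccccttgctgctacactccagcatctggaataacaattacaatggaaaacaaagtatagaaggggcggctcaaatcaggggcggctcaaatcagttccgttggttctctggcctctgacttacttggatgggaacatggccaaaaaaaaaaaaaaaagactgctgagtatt
Cd163: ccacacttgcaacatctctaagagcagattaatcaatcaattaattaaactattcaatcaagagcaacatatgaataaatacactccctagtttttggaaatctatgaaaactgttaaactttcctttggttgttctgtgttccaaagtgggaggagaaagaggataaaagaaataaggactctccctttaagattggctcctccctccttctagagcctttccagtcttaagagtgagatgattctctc
The Marco sequence holds 1 PU.1 match, beginning 146 bases before the start, and the Cd36 and Cd163 sequences hold 0 matches to any of the 3 motifs. Of 27025 promoter sequences of the same length, 23.1% held the PU.1 letters, 6.87% the AP-1 letters and 9.55% the C/EBP letters. A match of letters is a description of the sequence, and binding was not measured.

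Engrafted cells were first compared with host microglia without LPS. Only 5 members had enough reads to be tested, of which 3 were higher and 0 lower in engrafted cells, with a call requiring more than 2-fold (1 on the log2 scale) together with adjusted p under 0.05 (edgeR's quasi-likelihood test, Benjamini-Hochberg adjustment over 8042 genes). Of all genes tested, 11% were called, 6.25% as higher and 4.73% as lower. Cd36, with 4 reads in host microglia, passed the filter for low counts through engrafted libraries alone, so being tested nearly fixed its call. The members were chosen with earlier results of these data known, and such counts are given as a description. The 2 populations of a mouse share the animal, and the groups did not overlap for any of the 5 members, against 26.6% of all genes tested.

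Msr1, the class A receptor for acetylated lipoproteins and amyloid (NM_031195, chromosome 8, 40688806 to 40728032 of mm9), was read 77, 39, 40 and 48 times in engrafted cells and 3, 3, 17 and 15 times in host microglia of mice 5 to 8. The host libraries fell into a lower pair (mice 5 and 6) and a higher pair (mice 7 and 8), whereas the engrafted libraries lay between 65.5 and 86.4 CPM. Engrafted cells were higher by 2.99 on the log2 scale (SE 0.29, adjusted p = 9.36e-09, edgeR, 4 libraries each).

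Cd36, the class B receptor for long-chain fatty acids and oxidized lipoproteins (NM_007643, chromosome 5, 17287508 to 17341714), was counted at 57.4, 77.5, 22.9 and 64.8 CPM in engrafted cells of mice 5 to 8, and at 0, 1.94, 0.798 and 1.02 CPM in their host microglia. The engrafted library of mouse 7 was the low one of its group, yet stood above every host library. With 153 reads against 4, the ratio of engrafted cells to host microglia was 54.8 (95% counting interval 21 to 204), and the fitted log2 fold change was 5.64 (SE 0.49, edgeR adjusted p = 1.35e-09). The same library of mouse 7 had the highest sum of 10 neutrophil genes, 1244 CPM against 266 to 541 CPM in the other 3. In unchallenged host libraries that sum was 0 to 2.39 CPM, so between populations it was higher where Cd36 was higher. Within the engrafted group, in contrast, the library with the highest sum had the lowest Cd36. After LPS the sum in engrafted libraries was 48.8 to 511 CPM, with Cd36 at 1.22 to 3.36 CPM. The sort had taken Ly6C/G-negative cells, and the part of neutrophils in the Cd36 values was not tested.

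Stab1, stabilin-1, a multidomain receptor for SPARC and acetylated lipoproteins (NM_138672, chromosome 14, 31952203 to 31981827), averaged 1206 ± 107 CPM in engrafted libraries and 417 ± 53.6 CPM in host libraries (SD, n = 4 each). The lowest engrafted library had more than the highest host library, which held 489 CPM. The log2 fold change was 1.59 (SE 0.12, edgeR adjusted p = 7.3e-11). Nt5dc2, which overlaps Stab1 on the other strand, had 416 reads in all 16 libraries, and the counting used the sense strand.

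The class B receptor Scarb1 was lower in engrafted cells by less than 2-fold, and Scarb2 did not pass the test. Scarb1, the receptor through which cells take up cholesteryl esters from high-density lipoprotein (NM_001205082, chromosome 5, 125757457 to 125821464), was counted at 23.2, 28.7, 13.1 and 32.4 CPM in engrafted cells and 48.3, 43.7, 42.3 and 53.1 CPM in host microglia. No library overlapped, the log2 fold change was -0.89 (SE 0.24, edgeR adjusted p = 0.00648), and leaving out the engrafted library of mouse 8 took it past the 2-fold threshold, to -1.04. Scarb2, which carries glucocerebrosidase to lysosomes (NM_007644, chromosome 5, 92870337 to 92934683), stood at 305 ± 15.0 and 370 ± 18.1 CPM (SD, n = 4), with a log2 fold change of -0.22 (95% interval -0.46 to 0.02, edgeR adjusted p = 0.198).

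Cd163, the receptor for complexes of haemoglobin and haptoglobin (NM_001170395, chromosome 6, 124254669 to 124280545), did not pass the filter in this comparison. It was read 5, 8, 4 and 10 times in engrafted cells and 0, 1, 1 and 3 times in host microglia. The groups did not overlap, the ratio was 7.74 (95% counting interval 2.94 to 25.7), and a two-sided exact permutation test gave p = 0.029, the smallest that 4 libraries against 4 can give. Of all 4 comparisons within a pair of groups, the filter removed a member 14 times, and this was the 1 case that reached that p.

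**Figure D2:**
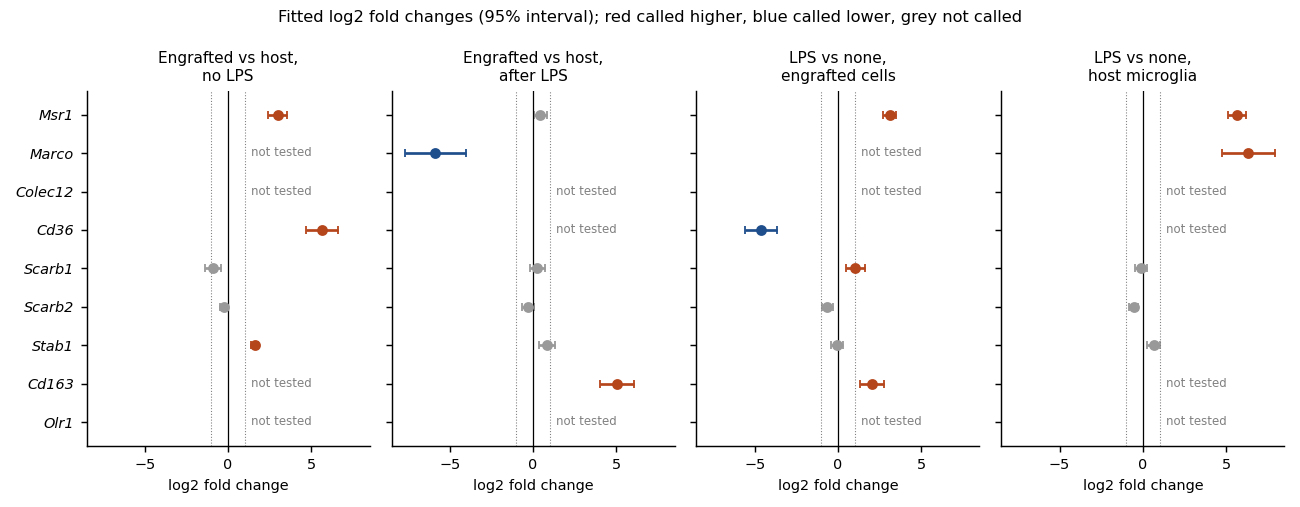
Fitted log2 fold change with its 95% interval (x axis) for the 9 genes (y axis) in 4 comparisons of 4 libraries against 4. Dotted lines mark 2-fold, red points were called higher, blue points lower and grey points not called, and members under the filter for low counts are marked as not tested. Marco lies far to the left only in the comparison of populations after LPS, at -5.87, and Cd163 lies to the right there at 5.04.

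After LPS, other members were called between the populations than without it. Marco and Cd163, called here, had been under the filter without LPS, and Stab1 passed the test in both comparisons. Of 6 members tested, 1 was higher and 1 lower in engrafted cells, against 11.1% of 7843 genes called in either direction (6.73% higher and 4.34% lower). Both passed the filter through 1 population alone, Marco with 488 host reads against 6 and Cd163 with 123 engrafted reads against 4. Being tested thus nearly fixed their calls. Libraries of the populations did not overlap for 4 of the 6, against 20.6% of all genes tested. These libraries come from other mice than those of the comparison without LPS.

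Marco, a class A receptor that binds bacteria and unopsonized particles (NM_010766, chromosome 1, 122371115 to 122401661), was read 184, 261, 28 and 15 times in host microglia of mice 1 to 4, and 5, 1, 0 and 0 times in engrafted cells of the same brains. The host libraries of mice 1 and 2 (211 and 260 CPM) stood well above those of mice 3 and 4 (33.8 and 20.9 CPM), and the engrafted reads came from the same mice 1 and 2. Host microglia exceeded engrafted cells 67.5-fold (488 against 6 reads, 95% counting interval 30.8 to 185), and the fitted log2 fold change of engrafted cells was -5.87 (SE 0.92, edgeR adjusted p = 0.000146). Leaving out each library in turn left it between -7.60 and -5.30.

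Cd163 showed the opposite order. It was counted at 49.2, 32.9, 48.1 and 42.1 CPM in engrafted cells of mice 1 to 4, and at 1.15, 0, 0 and 4.17 CPM in host microglia. No engrafted library was near the host range, with a ratio of 37.1 (123 against 4 reads, 95% counting interval 14.1 to 138) and a fitted log2 fold change of 5.04 (SE 0.52, edgeR adjusted p = 1.21e-06). The sum of the perivascular macrophage genes, which do not include Cd163, was 1013 to 1288 CPM in these engrafted libraries and 33.9 to 39.0 CPM in the host libraries, and its part in the Cd163 difference was not tested.

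The difference in Msr1 did not pass the test after LPS. The engrafted libraries held 800, 655, 506 and 659 CPM and the host libraries 591, 546, 430 and 412 CPM, so that the ranges overlapped. The log2 fold change was 0.43 (95% interval 0.04 to 0.82, edgeR adjusted p = 0.170). Within each of the 4 mice the engrafted library was the higher one.

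Stab1 remained higher in engrafted cells, by less than 2-fold. The engrafted libraries held 979, 954, 1460 and 1326 CPM and the host libraries 563, 403, 850 and 832 CPM. In both populations mice 3 and 4 were above mice 1 and 2, the reverse of the order of Marco in host microglia. The log2 fold change was 0.86 (SE 0.25, edgeR adjusted p = 0.023), and adjusted p was 0.068 when libraries were scaled by their totals. It ran from 0.018 to 0.084 with each library left out. Scarb1 (0.26, 95% interval -0.18 to 0.71) and Scarb2 (-0.31, 95% interval -0.67 to 0.06) did not pass the test, with edgeR adjusted p of 0.501 and 0.302. Cd36, with 6 reads in each population, was under the filter.

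The response to LPS was then tested within each population. The LPS comparisons share their unchallenged or challenged libraries with the comparisons between populations above, so the same values enter both. In engrafted cells 4 of 6 members tested were called, 3 higher and 1 lower, against 21.5% of 7609 genes (10.2% higher and 11.3% lower). In host microglia 2 of 5 members tested were called, both higher, against 18% of 8238 genes (7.66% higher and 10.4% lower). Cd36 in engrafted cells passed the filter through unchallenged libraries alone, and Marco in host microglia through LPS libraries alone. Being tested nearly fixed both calls. LPS and unchallenged libraries come from different mice, and the labels give no processing day by which to compare them.

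Msr1 rose in both populations. In host microglia it went from 9.05 ± 6.30 to 495 ± 87.5 CPM (SD, n = 4), a log2 fold change of 5.67 (SE 0.28, edgeR adjusted p = 1.14e-12). In engrafted cells it went from 73.8 ± 10.1 to 655 ± 120 CPM (SD, n = 4), a log2 fold change of 3.11 (SE 0.21, edgeR adjusted p = 6.04e-10). The response of engrafted cells was smaller by 2.58 on the log2 scale (SE 0.37), and this difference passed the test of the interaction of population and LPS over all 16 libraries (-2.58, edgeR adjusted p = 6.27e-05). In order of level, unchallenged host microglia came first, then unchallenged engrafted cells, then both groups with LPS, whose ranges overlapped.

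Marco rose in host microglia, from 0, 1, 2 and 3 reads in mice 5 to 8 to between 15 and 261 reads in mice 1 to 4. Every LPS library exceeded every unchallenged one, although the LPS libraries themselves ran from 20.9 to 260 CPM. The ratio was 93.8 (488 against 6 reads, 95% counting interval 42.8 to 257), and the fitted log2 fold change was 6.33 (SE 0.81, edgeR adjusted p = 1.85e-06), between 5.79 and 6.86 with each library left out. In engrafted cells Marco had 0 reads in all 4 unchallenged libraries, which allows up to 3.02 to 5.40 CPM, and at most 5 reads after LPS. With 0 reads in the unchallenged group, a fitted fold depends on the prior count and is not given. The interaction of Marco was fitted at -2.46 with a 95% interval of -31.4 to 26.5 (edgeR adjusted p = 0.957). It cannot be estimated for the same reason, so the missing call does not show that the responses were alike.

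Cd36 fell with LPS in engrafted cells, from 57, 46, 14 and 36 reads in mice 5 to 8 to 3, 1, 1 and 1 reads in mice 1 to 4. The highest LPS library, at 3.36 CPM, lay below the lowest unchallenged one, at 22.9 CPM. Unchallenged libraries exceeded LPS libraries 26.3-fold (95% counting interval 11.8 to 72.8), and the fitted log2 fold change was -4.65 (SE 0.49, edgeR adjusted p = 3.51e-07), between -5.03 and -4.42 with each library left out. In host microglia Cd36 had 4 reads without LPS and 6 with it, a ratio of 1.73 (95% counting interval 0.410 to 8.33). The interaction was -5.38 (SE 1.26, edgeR adjusted p = 0.00919), and without the host library of mouse 3, which held 4 of those 6 reads, it was -4.31 with an adjusted p of 0.181. The order of level therefore had unchallenged engrafted cells alone at the top, and the ranges of the other 3 groups overlapped.

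Cd163 rose in engrafted cells, from 10.8 ± 6.06 to 43.1 ± 7.46 CPM (SD, n = 4). The lowest LPS library (32.9 CPM) lay above the highest unchallenged one (18 CPM). The log2 fold change was 2.04 (SE 0.36, edgeR adjusted p = 0.000134). Host microglia held 5 reads without LPS and 4 with it, so that their level stayed at the limit of detection, and the interaction did not pass the test (2.13, 95% interval -0.18 to 4.44, edgeR adjusted p = 0.334). The sum of the monocyte genes was 207 to 360 CPM in unchallenged engrafted libraries and 1323 to 3136 CPM in those with LPS, that of the perivascular macrophage genes was 1416 to 1620 and 1013 to 1288 CPM, and their part in the Cd163 change was not tested.

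Scarb1 showed the smallest called response. In engrafted cells it went from 24.3 ± 8.39 to 52.8 ± 10.8 CPM (SD, n = 4), with no overlap between libraries, and its log2 fold change of 1.05 (SE 0.28, edgeR adjusted p = 0.00599) lay just past the 2-fold threshold. It was 0.97 when libraries were scaled by totals, 0.95 without the LPS library of mouse 4 and 0.86 without the unchallenged library of mouse 7, each time within 2-fold. In host microglia Scarb1 stood at 46.8 ± 4.90 and 43.6 ± 7.08 CPM (-0.11, 95% interval -0.50 to 0.27, edgeR adjusted p = 0.678). The interaction was called (1.15, SE 0.33, edgeR adjusted p = 0.0393), but adjusted p was above 0.05 in 9 of 16 fits that left out a library, with a range of 0.0246 to 0.0822. Unchallenged engrafted cells were the low group, and the ranges of the other 3 groups overlapped.

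Scarb2 fell in both populations by less than 2-fold. The unchallenged host libraries held 351, 390, 358 and 379 CPM and the LPS host libraries 219, 309, 257 and 225 CPM, a log2 fold change of -0.56 (SE 0.14, edgeR adjusted p = 0.00361). The unchallenged engrafted libraries held 321, 292, 315 and 293 CPM and the LPS engrafted libraries 191, 212, 199 and 202 CPM, a log2 fold change of -0.64 (SE 0.16, edgeR adjusted p = 0.00425). LPS and unchallenged libraries did not overlap in either population, against 35.7% and 35% of all genes tested. The interaction was -0.09 (95% interval -0.51 to 0.33, edgeR adjusted p = 0.870). From high to low the order was unchallenged host, unchallenged engrafted, LPS host and LPS engrafted, and only unchallenged engrafted and LPS host libraries overlapped.

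Stab1 in host microglia went from 417 ± 53.6 to 662 ± 217 CPM (SD, n = 4). The LPS library of mouse 2 (403 CPM) lay within the unchallenged range of 360 to 489 CPM. The log2 fold change was 0.65 (SE 0.19, edgeR adjusted p = 0.00989), within 2-fold. In engrafted cells it stood at 1206 ± 107 and 1180 ± 253 CPM (-0.07, 95% interval -0.43 to 0.30, edgeR adjusted p = 0.808), a difference that turned positive without the LPS library of mouse 1 (0.03) or mouse 2 (0.05). The interaction did not pass the test (-0.73, 95% interval -1.29 to -0.18, edgeR adjusted p = 0.132). With the mouse as a block its adjusted p was 0.0411 at -0.70, within 2-fold.

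Colec12, a class A collectin of vascular and stromal cells (NM_130449, chromosome 18, 9707646 to 9877993), and Olr1, the receptor for oxidized low-density lipoprotein of endothelium and macrophages (NM_138648, chromosome 6, 129435266 to 129457183), were not tested in any comparison. Colec12 had 16 reads in all, 10 of them in the unchallenged engrafted library of mouse 5 (10.1 CPM), and at most 2 in each other library. The same library held the highest sum of 7 fibroblast genes, 287 CPM against 52.2 CPM or less in the other 15 libraries, and the part of such cells in the Colec12 reads was not tested. Olr1 had 7 reads, all in host microglia, with 0 in the 8 engrafted libraries and at most 3 in a library. Exact permutation tests gave p from 0.429 to 1 for Olr1 and from 0.429 to 1 for Colec12 over the 4 comparisons. The outcome was fixed in advance for Olr1 in the LPS response of engrafted cells (0 reads in both groups). The same holds for Colec12 between populations after LPS (1 read against 0). For Colec12 in engrafted cells, 11 reads without LPS stood against 0 with it, and 10 of the 11 came from that library of mouse 5.

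In the test of the interaction, 3 of 7 members were called, 1 higher and 2 lower in the response of engrafted cells, against 4.95% of 8847 genes (2.45% higher and 2.5% lower). These were Scarb1, Msr1 and Cd36. Without the host LPS library of mouse 3 the count was 1, Msr1. Marco was among the 7, although its interaction could not be estimated with 0 reads in unchallenged engrafted cells.

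The related genes were 20 other scavenger receptors, 16 genes listed as ligands and partners, and 14 genes of lipid handling. The list of ligands and partners is broad, and some of its genes, such as Gas6 and Hmox1, encode no ligand of a member. Of other scavenger receptors tested without LPS, 4 of 7 were higher in engrafted cells and 1 lower (median log2 fold change 1.16, against 0.02 over all genes tested). The mannose receptor Mrc1 was higher by 4.58 (SE 0.17, edgeR adjusted p = 9.94e-17) and the hyaluronan receptor Cd44 by 1.81, and Scarf2 was lower at -2.65 (SE 0.29, edgeR adjusted p = 5.01e-08). Mrc1 is also in the list of perivascular macrophage genes. After LPS, 2 of 8 were higher and 1 lower (median 0.11, against -0.01), with Mrc1 at 5.15, Cd44 at 3.65 and Scarf2 at -2.47. Of all genes tested, 11% were called without LPS and 11.1% after it.

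In their response to LPS, 1 of 7 other scavenger receptors was called higher and 1 lower in engrafted cells (median 0.30, against -0.01), and 3 of 8 higher and 1 lower in host microglia (median 0.19, against 0.01). Of all genes tested, 21.5% were called in engrafted cells and 18% in host microglia. Cd44 rose in both populations, by 3.44 (SE 0.25) in engrafted cells and 1.60 (SE 0.36) in host microglia. Clec7a, the receptor for fungal beta-glucan, fell in both, with -3.10 (SE 0.28) in engrafted cells and -1.23 (SE 0.22) in host microglia. Cxcl16, a membrane-bound chemokine that binds oxidized lipoprotein, rose in host microglia by 1.31 (SE 0.21). Both interactions called in this list of 8 tested, against 4.95% of all genes, were those of Cd44 (1.84, edgeR adjusted p = 0.0194) and Clec7a (-1.88, edgeR adjusted p = 0.00174).

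Among ligands and partners without LPS, 1 of 12 was higher and 3 were lower in engrafted cells (median -0.19). Over all genes tested the median was 0.02, and 11% were called. The coreceptor Tlr2 was higher by 1.05, the tetraspanin Cd9, which associates with Cd36, stood at -2.58, and Sparc, a ligand of Stab1, at -2.21. After LPS 3 of 15 were higher and 4 lower (median -0.44, against -0.01 and 11.1% called over all genes tested). The haptoglobin gene Hp, whose product is a ligand of Cd163 when bound to haemoglobin, was higher by 6.99 (SE 0.51, edgeR adjusted p = 1.85e-08). Thbs1, a ligand of Cd36, was higher by 3.83, while Sparc (-2.95) and Cd9 (-2.68) were again lower.

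LPS raised 3 and lowered 3 of 14 ligands and partners tested in each population, against 21.5% of all genes called in engrafted cells and 18% in host microglia. The medians were 0.23 in engrafted cells and 0.13 in host microglia, against -0.01 and 0.01 over all genes tested. In engrafted cells Hp went from 19.6 ± 9.25 to 2211 ± 1365 CPM (SD, n = 4), a log2 fold change of 6.82 (SE 0.44, edgeR adjusted p = 4.78e-10), and Thbs1 rose by 2.23. Gas6, a bridge between apoptotic cells and their receptors, fell in both populations, with -2.93 in engrafted cells and -1.71 in host microglia, and so did Cd9, with -1.40 and -1.30. In host microglia Tlr2 rose by 2.49 and Tlr6 by 1.49. The interaction was called for 1 higher and 1 lower of 15, against 4.95% of all genes. These were Hp (5.35, SE 0.83, edgeR adjusted p = 0.000132) and Tlr2 (-1.69, SE 0.37, edgeR adjusted p = 0.00455).

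Of the lipid handling genes, 2 of 8 were higher in engrafted cells without LPS and 0 lower (median 0.33, against 0.02 and 11% called over all genes tested). They were the cholesterol exporter Abca1 (1.31) and the lipid droplet protein Plin2 (1.17). After LPS 3 of 11 were higher and 0 lower (median 0.32, against -0.01 and 11.1% called over all genes tested). The fatty acid-binding protein Fabp5 stood at 6.04 and the oxysterol receptor Nr1h3 at 5.69. LPS raised 3 and lowered 2 of 10 in engrafted cells (median -0.06, against -0.01 and 21.5% called over all genes tested). Among them were Nr1h3 (3.63), Plin2 (3.30), lipoprotein lipase Lpl (-1.88) and lysosomal acid lipase Lipa (-1.55). In host microglia it raised 1 and lowered 1 of 8, Plin2 (1.63) and Lpl (-1.65), with a median of 0.03, against 0.01 and 18% called over all genes tested. The interaction was called for 3 of 11, against 4.95% of all genes. These were Nr1h3 (5.14, SE 1.05), Plin2 (1.68, SE 0.33) and Abca1 (-1.61, SE 0.26), with edgeR adjusted p of 0.0028, 0.00177 and 0.000179. Host microglia held 11 reads of Nr1h3 without LPS and 3 with it. Abca1 stood at 302 ± 19.4 CPM in unchallenged and 186 ± 23.7 CPM in challenged engrafted cells, and at 126 ± 33.8 and 232 ± 36.3 CPM in host microglia (SD, n = 4).

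**Figure D3:**
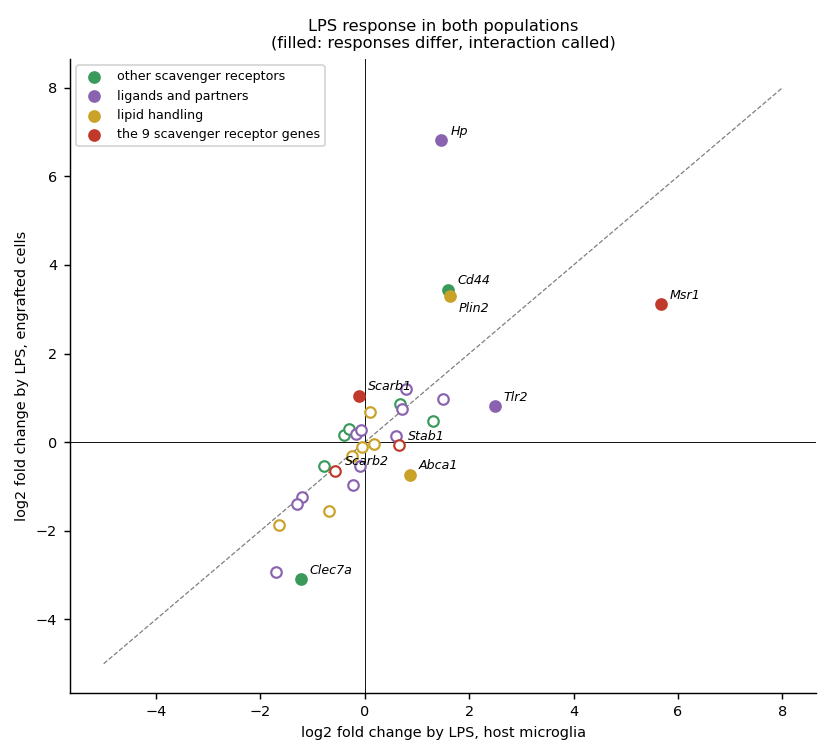
Log2 fold change by LPS in host microglia (x axis) and in engrafted cells (y axis) for members and related genes tested in both populations, with the dashed line at equal responses and filled points where the interaction was called. Msr1 lies below the line at 5.67 and 3.11, Scarb1 above it at -0.11 and 1.05, and Scarb2 close to it at -0.56 and -0.64, while Marco, Cd36 and Cd163 are absent because they were tested in 1 population only.

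For each member with a group mean of at least 20 CPM, the 2 genes with the most similar pattern were taken from 8840 genes by the root mean square difference of centred log2 CPM over the 16 libraries. Cd36 was nearest to the lectin gene Mgl2 (0.43) and the MHC class II transactivator gene Ciita (0.57). Their group means were 52.6 and 36.8 CPM in unchallenged engrafted cells and 2.77 CPM or less in the other 3 groups. Mgl2 is itself in the list of perivascular macrophage genes. Cd163 was nearest to Emp3 (0.43) and Fxyd5 (0.46), whose means rose from 274 and 224 CPM in unchallenged to 792 and 563 CPM in challenged engrafted cells.

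Msr1 was nearest to Clec4a1 (0.87) and Sdc4 (0.91), and Marco to Plet1 (1.08) and Hcar2 (1.09). Hcar2 had group means of 170 CPM in host microglia after LPS, 27.0 CPM in unchallenged host microglia, and 9.71 and 17.7 CPM in engrafted cells without and with LPS. Stab1 was nearest to Coro7 (0.27) and Trpv4 (0.32), Scarb1 to Sgf29 (0.21) and Ralgps1 (0.23), and Scarb2 to the lysosomal protective protein gene Ctsa (0.15) and Sec62 (0.16). All of these likenesses rest on the same 4 groups and libraries and are given as a description.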

How the data were processed

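RNA was measured in 16 libraries of a derivation of MARS-seq, which captures polyadenylated RNA at its 3′ end. The authors mapped reads to NCBI37 (mm9) with HISAT (version 0.1.5 in the submitters' processing notes), kept uniquely mapped reads and counted them on exons, sense strand, with HOMER. The deposited values are raw read counts per gene without normalization, and no removal of PCR duplicates is named. Counts ranged from 395283 to 1203597 per library. The check of replicate pairs gave a chi-square per degree of freedom of 2.03 to 8.96 over 24 pairs, so that none agreed within counting noise.

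Tests used edgeR 4.0.16 in R 4.3.3 (quasi-likelihood test, TMM, minimum count 10, minimum total 15, prior count 0.125), on the 2 groups compared or, for the interaction, all 16 libraries. The SE is the absolute log2 fold change over the root of F, and fitted 95% intervals take it as normal. Counting ratios have exact conditional 95% intervals. Members under the filter were compared by two-sided exact permutation tests. The tests were checked on simulated data. The members and lists were chosen with earlier results of these data known. Beside the 9 members, lists are given by their counts and, in each direction, the 2 called genes of largest fold change, and each member above 20 CPM by its 2 nearest genes. Both populations come from the same animal, so the mouse number pairs them. Pearson's r of their deviations from group means was -0.03 to 0.21 over 8 mice, and the mouse was a replicate block among the alternatives, as were RLE factors, library totals, DESeq2 1.42.0, other filters, 1 fit of all libraries and leaving out each library. A prior count of 2 was chosen after seeing the data.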

Additional observations from a re-analysis of the deposited data

Results flagged for a closer look

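The response to LPS differed between the populations for 3 members by the test of the interaction (edgeR, 16 libraries): Msr1 at -2.58 (SE 0.37, adjusted p = 6.27e-05), Cd36 at -5.38 (SE 1.26, adjusted p = 0.00919) and Scarb1 at 1.15 (SE 0.33, adjusted p = 0.0393), each as the log2 response of engrafted cells minus that of host microglia. Colec12 had 1 library far from the other 3 of its group in unchallenged engrafted cells (10.1 CPM in mouse 5, with the next at 1.64 CPM) and, resting on 1 read, in host microglia after LPS (1.15 CPM in mouse 1, with the others at 0). Of 32 sets of 4 libraries checked in this way, chance alone would mark about 1 in 20 if values were normally distributed. That rate does not hold for sets of few reads, where 1 read against 0 in the others is always marked.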

How the results depend on the processing

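Of 214 values of single members under settings other than leaving out a library, 211 kept their direction and their call, which takes fold and adjusted p together. The other 3 calls were those of Scarb1: its response in engrafted cells was 0.97 with library totals and 0.97 with a prior count of 2, and its interaction was 1.09 with library totals (adjusted p = 0.0506). Adjusted p alone also crossed 0.05 for Stab1, which stayed within 2-fold, after LPS with library totals (0.068 at 0.69, against 0.023) and in the interaction with the replicate block (0.0411 at -0.70, against 0.132). Leaving out a library crossed it as well, with edgeR adjusted p of 0.018 to 0.084 after LPS and 0.027 to 0.308 in the interaction. With each library left out, the members called numbered 3 to 4 without LPS, 2 after LPS, 3 to 4 for LPS in engrafted cells, 2 for LPS in host microglia and 1 to 3 for the interaction. Stab1 in engrafted cells reversed, over a range of -0.17 to 0.05, without the LPS library of mouse 1 (0.034) or 2 (0.046), and the interaction of Scarb2 without the host LPS library of mouse 2 (0.016, range -0.16 to 0.016), and neither passed the test. Without a filter, Cd163 without LPS (2.90, edgeR adjusted p = 0.00185, and likewise with all libraries in 1 fit, adjusted p = 0.00198) and Colec12 for LPS in engrafted cells (-4.32, edgeR adjusted p = 0.0184) were also called, the latter on 11 reads against 0, and all genes called then numbered 1454 without LPS and 1352 after LPS, against 883 and 868. With the replicate block, all 3 comparisons that allow it kept their number of called members (3 without LPS, 2 after LPS and 3 for the interaction), and it changed no member's call. Library totals shifted the median of all genes by over 0.1 after LPS, to -0.16. Depth limits Colec12, Olr1, and Cd36 and Cd163 in host microglia. It also limits Marco in engrafted cells and unchallenged host microglia, and Cd36 in engrafted cells after LPS. In all of these a library holds at most 5 reads, except for 1 with 10 reads of Colec12.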
